A study of Danio rerio with 6 samples.

Results

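The genes described here encode the machinery that licenses origins and copies DNA, measured by RNA sequencing in 6 samples of zebrafish (Danio rerio) liver. A list of 43 zebrafish genes, chosen with earlier results of these data known, was matched by symbol to a deposited table of 30628 Ensembl genes. All 43 were found. The ATG5 group (3 samples) came from transgenic fish, Tg(fabp10a:mCherry-T2A-LexPR;LexOP:ATG5WT). In these fish the liver promoter fabp10a drives the LexPR activator, which turns on human ATG5, an autophagy gene, once mifepristone is given. The WT group (3 samples) held wild-type fish under the same drug, mifepristone, and both groups carry the label 2 wpi. The design text calls the groups hepatocellular carcinoma and normal liver. The age of the fish, and whether a sample is 1 animal or a pool, are not given in the labels used here, so a p-value here speaks only of the spread from sample to sample, which may be technical. No group here carried the transgene without mifepristone, so what human ATG5 did and how the fish lines differ otherwise cannot be told apart.

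Before a cell divides, the origin recognition complex marks the places where copying can start, and CDC6 and CDT1 load the ring-shaped MCM2-7 helicase there. CDC45 and the GINS complex then join the ring, MCM10 helps to activate it, and polymerases alpha, epsilon and delta copy the strands behind it. Most hepatocytes of an adult liver are out of the cell cycle and hold little of this machinery, and they take it up again during growth, after injury and in tumours. In bulk tissue, more cells in the cycle and more RNA per cell cannot be told apart.

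Total estimated counts per library ran from 33669057 to 44763325 in ATG5 and from 35151200 to 43864158 in WT, and 3 counts in a library stood for 0.0503 to 0.0607 CPM in ATG5 and 0.0897 to 0.12 CPM in WT (counting error only). Levels below are CPM, counts scaled to library size and to a TMM factor that keeps a few very abundant genes from setting the scale, and values are listed in the order of replicates 1, 2 and 3. Log2 folds are ATG5 over WT with a standard error (n = 3 per group), and a value with ± in brackets or after "rose by" is such a log2 fold. Among 13 hepatocyte markers 10 fell and 0 rose, beside 13.2% lower and 17.3% higher over all tested genes. The marker fabp10a stood at 4899, 5137 and 8671 CPM in ATG5 against 13260.0, 9562 and 12280.0 CPM in WT, and both groups thus carry the marker of the labelled tissue. Its log2 fold of -0.91 ± 0.30 did not pass with edgeR (adjusted p = 0.0764), while fabp10a was called lower with DESeq2 (-0.94, adjusted p = 0.00944), with limma-voom (-0.95, adjusted p = 0.049) and without ATG5 replicate 3 (-1.25, adjusted p = 0.043). The fall of fabp10a depended on the scaling. With library sizes only, without TMM factors, edgeR put fabp10a at 0.035 (adjusted p = 0.921). The marker tfa, called lower with TMM, then stood at -0.465 (edgeR adjusted p = 0.156). With TMM, tfa lost its call without ATG5 replicate 1 or 2 or WT replicate 1 or 3 (edgeR adjusted p = 0.0505 to 0.0868). It also lost its call when every gene with a count was kept (edgeR adjusted p = 0.052). The median log2 fold of the 13 markers was -1.77 with TMM, and the other markers are not given with library sizes only. The zebrafish's own ATG5 row, which does not measure the human transgene, stood at 14.9, 19.3 and 14.8 CPM in ATG5 and 12.5, 11.4 and 19.8 CPM in WT (adjusted p = 0.65).

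Replication genes were higher in ATG5 livers almost throughout. The list was chosen with earlier results of these data known, so the shares set beside it are a description and no test of the list. Of the 43 genes, 38 rose and 2 fell (edgeR quasi-likelihood test, Benjamini-Hochberg adjusted p under 0.05 over 20366 tested genes), where 17.3% of all tested genes were called higher and 13.2% lower. Over all tested genes that split was 3529 higher and 2698 lower, and with library sizes only, without TMM factors, it was 10853 higher and 578 lower. The median log2 fold was 2.78 over the 43 genes and 0.03 over all tested genes. A total of 20 genes were called with a log2 fold of at least 3, a mark that 4.79% of all tested genes passed. Every ATG5 library lay above every WT library for 39 of the 43 genes, against 27.1% of all tested genes, and every ATG5 library lay below for 2, against 22.2%. The lowest ATG5 library was over 5 times the highest WT library for 22 of the 43, a mark that was not counted over all tested genes. The counts by role below stand beside the same 17.3% higher and 13.2% lower.

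Together the 43 genes took 0.0875%, 0.0835% and 0.101% of the counts in ATG5, against 0.0113%, 0.0141% and 0.011% in WT. Their summed level was 643, 569 and 759 CPM in ATG5 and 165, 185 and 153 CPM in WT. Without PCNA the sums were 548, 489 and 624 CPM in ATG5 and 160.3, 179 and 147 CPM in WT. The groups did not overlap in either sum.

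**Figure D1:**
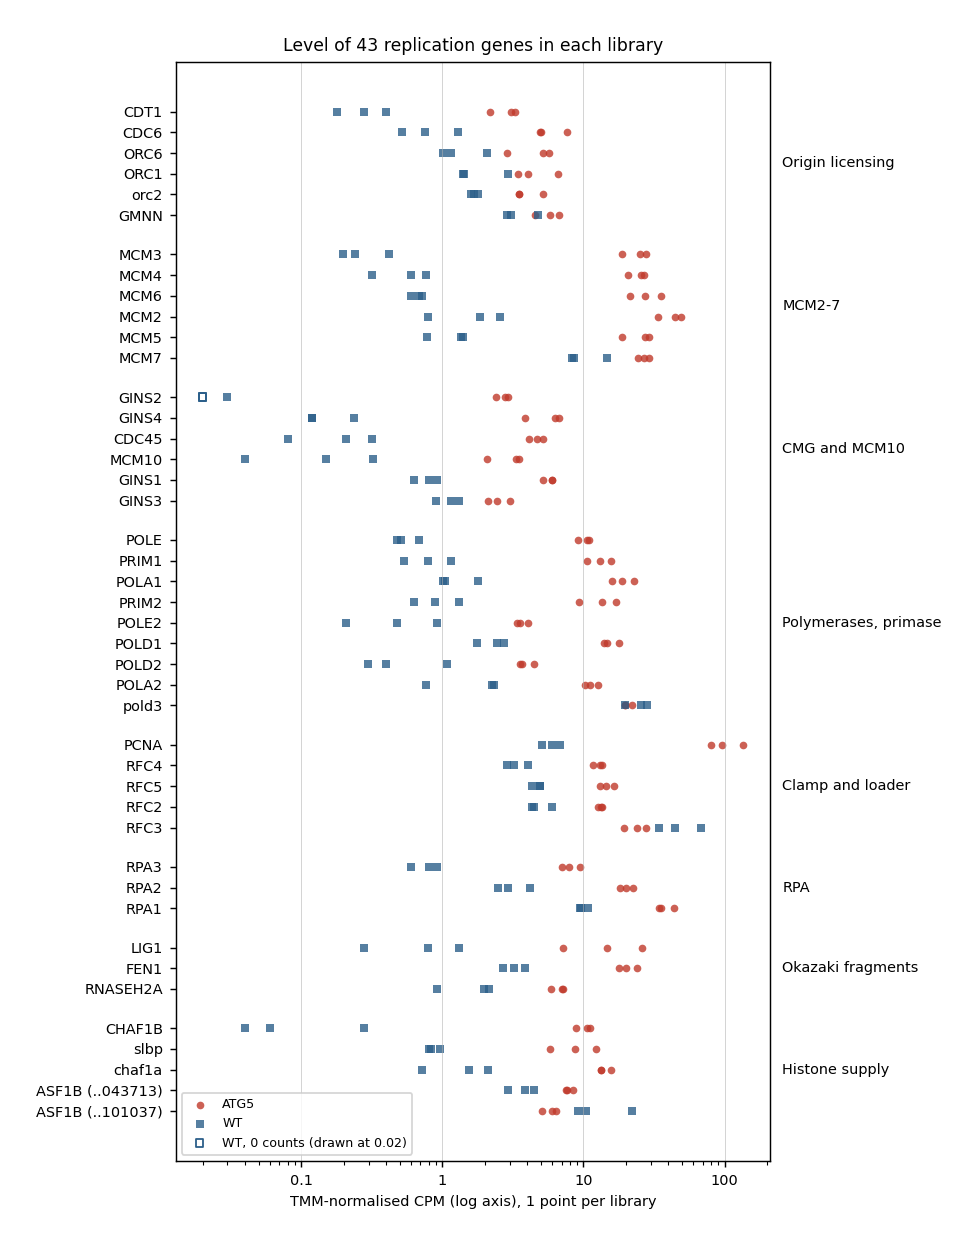
TMM-normalised CPM (log axis) of 43 replication genes, 1 point per library, with ATG5 as circles and WT as squares; open squares are WT libraries with 0 counts, and the 2 ASF1B rows are told apart by the end of their Ensembl IDs. For 39 genes all ATG5 points lie to the right of all WT points, while RFC3 and 1 ASF1B row show the opposite order.

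The helicase genes MCM2 to MCM7, whose products form 1 ring with 6 different subunits, all rose. MCM3 stood at 25.0, 18.9 and 27.6 CPM in ATG5, against 0.240, 0.419 and 0.198 CPM in WT. Its lowest ATG5 library was 45.04 times its highest WT library, and the log2 fold was 6.33 ± 0.32 (SE, n = 3 per group; edgeR adjusted p = 0.000628). MCM4 had 26.7, 20.6 and 25.6 CPM in ATG5 and 0.760, 0.598 and 0.318 CPM in WT, and MCM6 had 27.4, 21.3 and 35.2 CPM in ATG5 and 0.721, 0.688 and 0.595 CPM in WT. These 3 had the largest folds of the ring, with MCM4 at 5.43 ± 0.36 and MCM6 at 5.38 ± 0.22. MCM2 followed with 48.7, 33.6 and 44.5 CPM in ATG5 and 1.84, 2.54 and 0.794 CPM in WT (4.60 ± 0.51), and MCM5 with 27.3, 18.8 and 28.9 CPM in ATG5 and 1.40, 0.778 and 1.35 CPM in WT (4.42 ± 0.33). No ATG5 library of these 5 subunits came near the WT range. In RefSeq (assembly GRCz12tu) mcm3 overlaps stmn4, a symbol that 2 rows carry. The STMN4 row ENSDARG00000043932 was also called higher, with 2.44, 1.13 and 3.29 CPM in ATG5 and 0.200, 0.329 and 0.675 CPM in WT (2.51 ± 0.63, edgeR adjusted p = 0.025), and the row ENSDARG00000030106 was not called.

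MCM7, a subunit of the same ring, rose with the smallest log2 fold of the 6. It stood at 29.2, 24.4 and 26.8 CPM in ATG5 and 8.29, 14.6 and 8.57 CPM in WT (log2 fold 1.35 ± 0.27; edgeR adjusted p = 0.0111). The groups did not overlap, but the lowest ATG5 library was only 1.67 times the highest WT library. The count of MCM7 relative to the mean count of the other 5 ring subunits, a ratio that needs no scaling between libraries, was 0.942, 1.08 and 0.828 in ATG5 and 8.35, 14.5 and 13.2 in WT. In RefSeq the span of mcm7 holds the microRNA genes mir25, mir93 and mir19d.

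Origin licensing genes made up the role with the smallest median log2 fold, 1.49, and 4 of 6 rose. CDT1, the loading factor, stood at 3.26, 2.17 and 3.07 CPM in ATG5 and 0.400, 0.179 and 0.278 CPM in WT (log2 fold 3.31 ± 0.34; edgeR adjusted p = 0.00321). CDC6, an ATPase that loads the ring together with the origin recognition complex, had 4.99, 4.94 and 7.598 CPM in ATG5 and 1.28, 0.748 and 0.516 CPM in WT (2.78 ± 0.41). Both had non-overlapping groups. In WT, CDT1 rested on 10, 6 and 7 counts.

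The 3 origin recognition subunits among the 43 genes, ORC1, orc2 and ORC6, had smaller log2 folds than MCM2 to MCM6. ORC1 and orc2 also lay slightly below MCM7 (1.28 and 1.27 against 1.35), and ORC6 lay above it. ORC6 stood at 2.89, 5.18 and 5.67 CPM in ATG5 and 2.08, 1.017 and 1.15 CPM in WT (1.70 ± 0.43, edgeR adjusted p = 0.024). ORC6 lost its call without ATG5 replicate 2 or 3, or without WT replicate 2 or 3 (adjusted p = 0.068 to 0.076). The gene orc2 had 5.20, 3.48 and 3.52 CPM in ATG5 and 1.80, 1.58 and 1.67 CPM in WT (1.27 ± 0.20, edgeR adjusted p = 0.0142), and leaving out ATG5 replicate 1 took away its call (adjusted p = 0.0532). ORC1 did not pass: it stood at 4.02, 3.42 and 6.61 CPM in ATG5 and 1.40, 2.93 and 1.43 CPM in WT (log2 fold 1.28 ± 0.44; edgeR adjusted p = 0.0607). The groups of ORC1 did not overlap, yet WT replicate 2 came close to the lowest ATG5 library, and without it the gene was called (1.72, adjusted p = 0.0334). DESeq2 (1.26, adjusted p = 0.0236) and library sizes only (2.19, adjusted p = 0.00618) also called ORC1. In RefSeq, orc1 overlaps mpl, the thrombopoietin receptor gene, which stood at 0.391, 0.445 and 0.201 CPM in ATG5 and 0.360, 1.08 and 0.476 CPM in WT and was not called.

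GMNN encodes geminin, which binds CDT1 and blocks a second round of licensing, and it did not pass the test. It had 6.67, 4.51 and 5.77 CPM in ATG5 and 3.04, 4.79 and 2.86 CPM in WT (log2 fold 0.66 ± 0.28; edgeR adjusted p = 0.125). The groups overlapped, with WT replicate 2 above ATG5 replicate 2, and with library sizes only the gene was called higher (1.59, adjusted p = 0.00541). The count of GMNN over that of CDT1 in the same library was 2.05, 2.08 and 1.88 in ATG5 and 7.60, 26.7 and 10.3 in WT. The ATG5 libraries lay close together and all below the WT libraries, where CDT1 had the few counts given above.

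**Figure D2:**
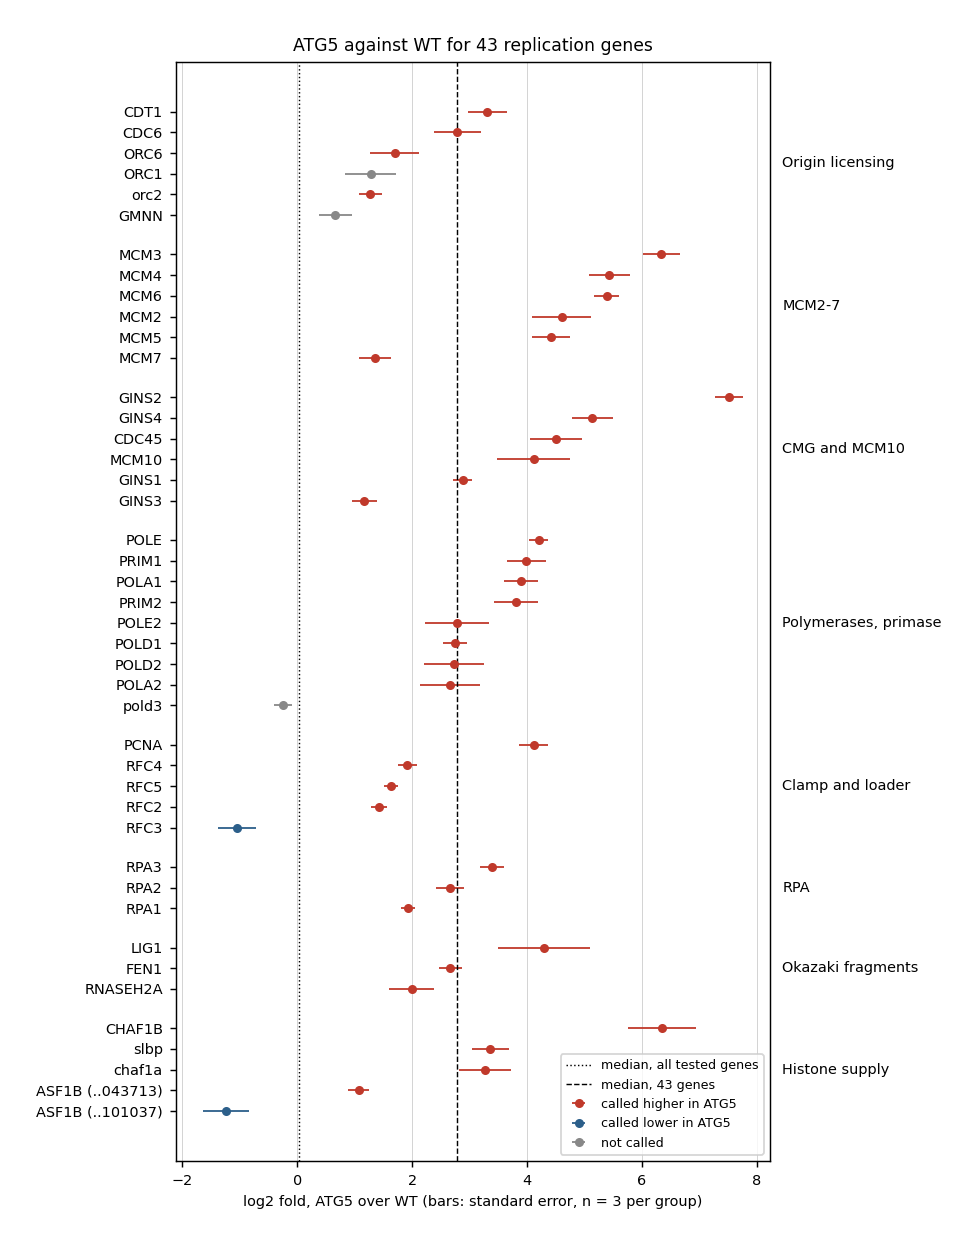
Log2 fold of ATG5 over WT for the 43 genes by role, with the standard error as bars (n = 3 per group); colours mark genes called higher, called lower and not called, and lines mark the medians of all tested genes (0.03) and of the 43 genes (2.78). MCM7, GINS3, GMNN, pold3, RFC3 and both ASF1B rows lie left of the other genes of their roles.

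All 6 genes for the step that turns the loaded ring into a moving helicase rose, with a median log2 fold of 4.31. GINS2, a subunit of the GINS complex, was almost without counts in WT: its counts were 149, 118 and 174 in ATG5, against 0, 1 and 0 in WT. The ratio of summed counts, corrected for library size and TMM factor, was 226.6 (95% exact interval 40.46 to 8971, counting error only). GINS4 stood at 6.30, 3.85 and 6.76 CPM in ATG5 and 0.120, 0.120 and 0.238 CPM in WT (5.13 ± 0.36), and GINS1 at 5.20, 5.97 and 6.02 CPM in ATG5 and 0.800, 0.628 and 0.913 CPM in WT (2.88 ± 0.16). In both, all ATG5 libraries lay well above the WT libraries.

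GINS3, the remaining GINS subunit, had the smallest change of this role. It stood at 2.44, 2.105 and 3.02 CPM in ATG5 and 1.16, 0.897 and 1.31 CPM in WT (log2 fold 1.17 ± 0.21; edgeR adjusted p = 0.0288). Its groups did not overlap, but the call was lost in 5 of the 6 fits that left out 1 library (adjusted p = 0.0526 to 0.103), all except that without ATG5 replicate 2. CDC45, which completes the active helicase, had 5.14, 4.13 and 4.68 CPM in ATG5 and 0.0800, 0.209 and 0.318 CPM in WT (4.50 ± 0.45). MCM10 had 3.33, 2.08 and 3.49 CPM in ATG5 and 0.320, 0.150 and 0.0397 CPM in WT (4.11 ± 0.64). In WT, CDC45 rested on 2, 7 and 8 counts, MCM10 on 8, 5 and 1 counts and GINS4 on 3, 4 and 6 counts. The prior count of 2 narrows the spread, and with it the standard errors, of genes so near 0.

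Among the polymerase and primase genes, 8 of 9 rose, with a median log2 fold of 2.78. POLE, the catalytic subunit of the polymerase that copies the leading strand, stood at 9.202, 10.6 and 10.9 CPM in ATG5 and 0.680, 0.508 and 0.476 CPM in WT (4.20 ± 0.17, edgeR adjusted p = 0.000628). Its ATG5 libraries differed little from each other and were all above WT. The 4 genes of the polymerase alpha and primase complex, which lays down the primers, also rose: POLA1 by a log2 fold of 3.90 ± 0.29, PRIM1 by 3.99 ± 0.34, PRIM2 by 3.80 ± 0.38 and POLA2 by 2.66 ± 0.52. POLA1, the catalytic subunit, had 18.7, 15.99 and 22.6 CPM in ATG5 and 1.04, 1.017 and 1.79 CPM in WT, and POLA2 had 11.2, 10.2 and 12.6 CPM in ATG5 and 0.760, 2.33 and 2.26 CPM in WT, with groups apart in both. The primase subunit PRIM1 had 13.2, 10.6 and 15.6 CPM in ATG5, against 1.16, 0.538 and 0.794 CPM in WT. Its partner PRIM2 had 13.5, 9.37 and 17.0 CPM in ATG5, against 0.881, 1.32 and 0.635 CPM in WT, and neither overlapped.

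Polymerase delta copies the lagging strand, and its subunits had unlike folds. POLD1, the catalytic subunit, stood at 17.8, 14.0 and 14.8 CPM in ATG5 and 1.76, 2.45 and 2.74 CPM in WT (2.74 ± 0.21). POLD2 had 3.58, 4.45 and 3.67 CPM in ATG5 and 0.400, 0.299 and 1.07 CPM in WT (2.73 ± 0.52), and the epsilon subunit POLE2 had 3.37, 4.03 and 3.54 CPM in ATG5 and 0.921, 0.209 and 0.476 CPM in WT (2.78 ± 0.56). All 3 rose. The accessory subunit gene pold3, whose product also serves in translesion synthesis, had 19.6, 19.8 and 22.0 CPM in ATG5 and 25.4, 19.6 and 28.0 CPM in WT and did not pass the test (-0.25 ± 0.16, edgeR adjusted p = 0.32). The groups of pold3 overlapped, and with library sizes only its fold turned to 0.70 and was called higher (adjusted p = 0.0119). The count of pold3 over that of POLD1 was 1.101, 1.41 and 1.49 in ATG5 and 14.4, 7.98 and 10.2 in WT. In RefSeq, pold3 overlaps neu3.1.

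PCNA, the sliding clamp that holds the polymerases on DNA, stood at 95.4, 80.1 and 136 CPM in ATG5 and 5.12, 6.01 and 6.79 CPM in WT. All ATG5 libraries were at least 11.8 times the highest WT library, and the log2 fold was 4.12 ± 0.25 (edgeR adjusted p = 0.000682). The loader that places this clamp consists of RFC1 to RFC5, and RFC2, RFC4 and RFC5 rose by 1.42 ± 0.15, 1.92 ± 0.16 and 1.63 ± 0.12. RFC4 had 13.1, 11.7 and 13.6 CPM in ATG5 and 3.20, 4.07 and 2.86 CPM in WT, and RFC2 had 12.7, 13.5 and 13.3 CPM in ATG5 and 4.32, 4.49 and 5.95 CPM in WT. RFC5 had 14.4, 13.0 and 16.4 CPM in ATG5 and 4.32, 4.91 and 4.96 CPM in WT. None of these 3 overlapped between the groups.

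RFC3, a subunit of the same loader, was lower in ATG5. It stood at 19.3, 27.8 and 24.0 CPM in ATG5 and 44.5, 68.1 and 34.1 CPM in WT (log2 fold -1.04 ± 0.33; edgeR adjusted p = 0.0367), lower in all 3 ATG5 libraries than in any WT library. The call did not withstand leaving out 1 library: it was lost without ATG5 replicate 1, 2 or 3 (adjusted p = 0.103, 0.0592 and 0.0869) and without WT replicate 1 or 2 (0.0786 and 0.0699). With library sizes only the fold was -0.11 (adjusted p = 0.79). The count of RFC3 over the mean of RFC2, RFC4 and RFC5 was 1.44, 2.19 and 1.67 in ATG5 and 11.3, 15.2 and 7.43 in WT. RFC2, RFC4 and RFC5 rose, so this ratio would be lower in ATG5 even if RFC3 had not changed.

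RPA, the complex that coats single-stranded DNA, rose in all 3 subunits. RPA3 stood at 7.90, 7.10 and 9.53 CPM in ATG5 and 0.600, 0.808 and 0.913 CPM in WT (3.40 ± 0.21), RPA2 at 20.0, 18.01 and 22.5 CPM in ATG5 and 2.48, 2.90 and 4.21 CPM in WT (2.66 ± 0.24). RPA1 had 35.7, 34.4 and 43.6 CPM in ATG5 and 9.57, 9.51 and 10.8 CPM in WT (1.93 ± 0.12). No ATG5 library overlapped the WT range in any of these, and the edgeR adjusted p ran from 0.000949 for RPA3 to 0.00153 for RPA2.

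The 3 genes for finishing Okazaki fragments and removing ribonucleotides rose. FEN1, the flap nuclease, stood at 20.1, 17.9 and 24.1 CPM in ATG5 and 3.24, 2.69 and 3.85 CPM in WT (2.67 ± 0.19). RNASEH2A had 5.87, 7.16 and 7.03 CPM in ATG5 and 0.921, 1.97 and 2.14 CPM in WT (1.99 ± 0.39). LIG1, the ligase that seals the nicks, stood at 7.19, 14.8 and 25.9 CPM in ATG5 and 0.280, 1.32 and 0.794 CPM in WT (4.30 ± 0.80, edgeR adjusted p = 0.00714). ATG5 replicates of LIG1 spread more than those of any other of the 43 genes (coefficient of variation 58.88%, against a median of 15.11%). The count of LIG1 over that of FEN1 was 0.357, 0.829 and 1.07 in ATG5 and 0.0864, 0.489 and 0.206 in WT, and these ranges overlapped.

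New DNA is packed at once into nucleosomes, and 4 of the 5 genes for histone supply rose. CHAF1B, a subunit of the chromatin assembly factor CAF-1 that works with PCNA, had 8.87, 10.6 and 11.2 CPM in ATG5 and 0.280, 0.0598 and 0.0397 CPM in WT (6.35 ± 0.60). Its partner chaf1a had 13.4, 13.3 and 15.7 CPM in ATG5 and 2.12, 1.56 and 0.714 CPM in WT (3.27 ± 0.46). The gene slbp, whose product binds the stem-loop of histone mRNAs, stood at 8.70, 5.81 and 12.2 CPM in ATG5 and 0.800, 0.957 and 0.833 CPM in WT (3.36 ± 0.32). All 3 had groups far apart, and CHAF1B rested on 7, 2 and 1 counts in WT.

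The histone chaperone ASF1B is represented by 2 rows, and the files do not say which is asf1ba and which asf1bb. The row ENSDARG00000043713 stood at 7.47, 7.69 and 8.40 CPM in ATG5 and 2.92, 3.86 and 4.45 CPM in WT and rose (1.07 ± 0.18, edgeR adjusted p = 0.0126). The row ENSDARG00000101037 had 6.41, 5.10 and 6.02 CPM in ATG5 and 22.0, 10.5 and 9.21 CPM in WT and fell by 1.25 on the log2 scale (SE 0.40, edgeR adjusted p = 0.0417). Neither row's groups overlapped, and WT replicate 1 held the highest value of the second row. That call was lost without ATG5 replicate 1, 2 or 3 (adjusted p = 0.0921, 0.115 and 0.101) and without WT replicate 1 or 2 (0.053 and 0.0526), and with library sizes only the fold was -0.29 (adjusted p = 0.479). Reads of such similar paralogues can be split between rows, and the sum of both rows gave a log2 fold of -0.36 (adjusted p = 0.333).

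The 6 within-library ratios were chosen after their values were seen, mostly because 1 partner rose less than the other, and they are given as a description with no test. Those of GMNN over CDT1, RFC3 over its partners, MCM7 over its partners and pold3 over POLD1 were lower in all 3 ATG5 libraries than in any WT library. The ratio of ORC1 over CDC6 was 0.806, 0.693 and 0.870 in ATG5 and 1.09, 3.92 and 2.77 in WT, without overlap. A lower ratio says only that the partners changed unequally.

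**Figure D3:**
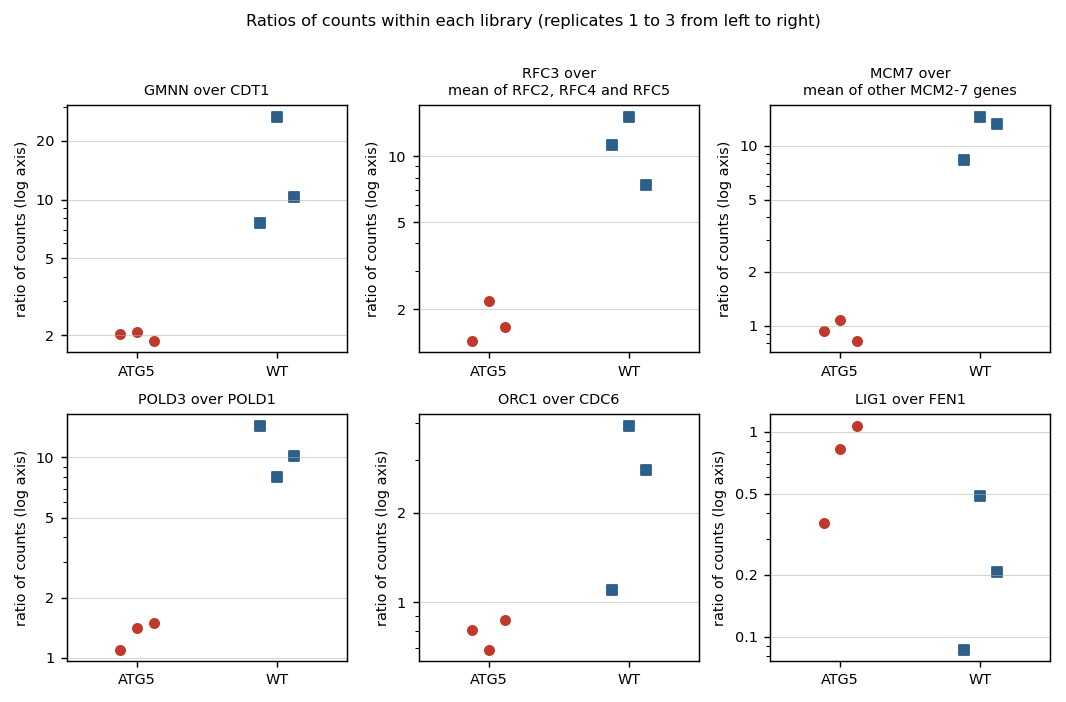
Ratios of estimated counts within each library (log axis), 3 ATG5 libraries left and 3 WT libraries right in each panel. In 5 panels all ATG5 points lie below all WT points, and for LIG1 over FEN1 the groups overlap.

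Subunits of the same complexes outside the 43 genes gave a further view of unequal change. ORC4, an origin recognition subunit, stood at 8.55, 7.81 and 13.2 CPM in ATG5 and 0.600, 0.239 and 0.357 CPM in WT (4.63 ± 0.41, edgeR adjusted p = 0.00152). ORC5 and ORC3 rose by 1.79 ± 0.26 and 1.45 ± 0.29, so 5 of the 6 subunits of that complex were called. The share called higher over all tested genes was 17.3%, and 13.2% were called lower. These subunits, too, came from lists chosen with earlier results of these data known. RFC1, the large loader subunit, rose by 1.13 ± 0.15, and the CAF-1 subunit RBBP4, which also serves in other chromatin complexes, by 1.54 ± 0.17. Small changes were found for pole3 (0.97 ± 0.10), pold4 (0.80 ± 0.16) and rnaseh2c (1.08 ± 0.23), which rose. The call of pold4 was lost without ATG5 replicate 1 or 3 or WT replicate 2 or 3 (adjusted p = 0.0516 to 0.0686), and that of rnaseh2c without ATG5 replicate 1 or 3 (0.0574 and 0.0616). POLE4 had 8.12, 7.21 and 7.68 CPM in ATG5 and 6.76, 5.74 and 8.06 CPM in WT (0.16 ± 0.15, adjusted p = 0.538), with overlapping groups, and RNASEH2B a log2 fold of 0.83 ± 0.38 (adjusted p = 0.12); neither passed.

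**Figure D4:**
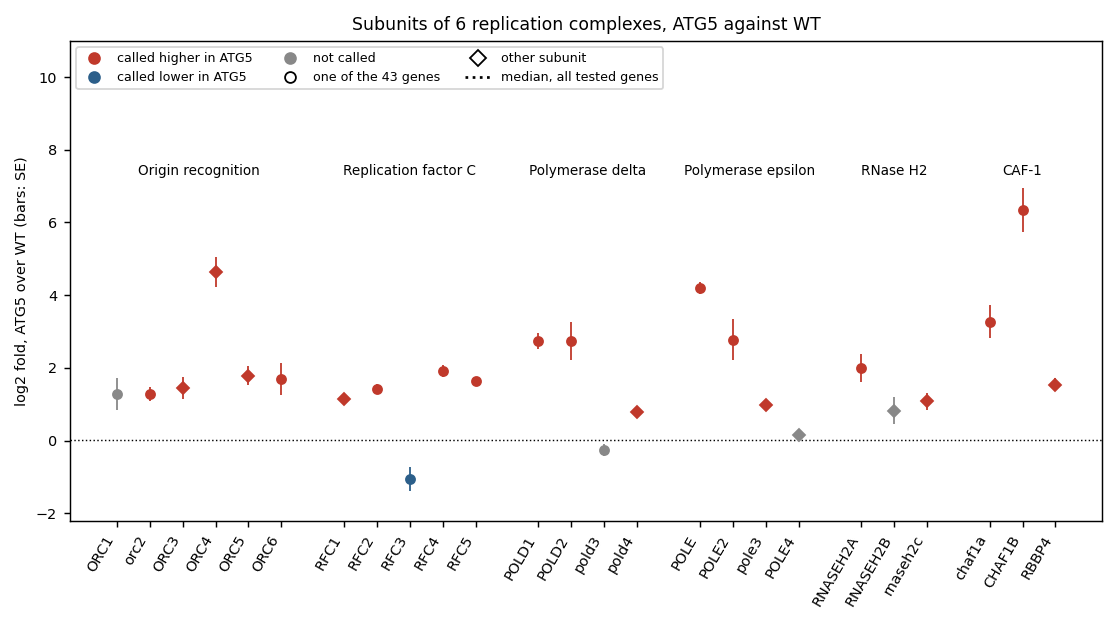
Log2 fold of ATG5 over WT (bars, standard error) for the subunits of 6 replication complexes; circles are among the 43 genes, diamonds are other subunits, and the dotted line is the median of all tested genes (0.03). Within a complex the folds differ widely, from 4.63 for ORC4 to 1.27 for orc2 and from 4.20 for POLE to 0.16 for POLE4.

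A wider list of 50 other replication genes was measured for 47, and 28 rose and 4 fell, beside 17.3% higher and 13.2% lower over all tested genes. The median log2 fold of these 47 was 1.13. The 6 with the smallest p among those that rose were MCM9, MMS22L, pclaf, 1 SSRP1 row, atad5a and ORC4. MCM9, a helicase of recombination repair, had 4.84, 4.27 and 5.67 CPM in ATG5 and 0.200, 0.269 and 0.238 CPM in WT (4.36 ± 0.16). In WT, MCM9 rested on 5, 9 and 6 counts, where the prior count of 2 narrows the standard error. The PCNA-binding factor pclaf had 4.92, 5.06 and 7.35 CPM in ATG5 and 0.240, 0.359 and 0.278 CPM in WT (4.28 ± 0.23), while MMS22L, which acts at stalled forks, and atad5a, which unloads PCNA, rose by 3.47 ± 0.11 and 2.70 ± 0.21. The SSRP1 row ENSDARG00000037397, for a subunit of the histone chaperone FACT, rose by 1.94 ± 0.12.

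The 4 that fell, a smaller share of the 47 than the 13.2% over all tested genes, were WDHD1, CUL4B, CUL4A and DDB1. WDHD1, which links the helicase to polymerase alpha, stood at 22.2, 19.0 and 30.9 CPM in ATG5 and 67.0, 78.8 and 48.5 CPM in WT (-1.43 ± 0.29, edgeR adjusted p = 0.0104). Either CUL4A or CUL4B forms, together with DDB1, a ubiquitin ligase core that, with DTL, marks CDT1 for destruction at PCNA. CUL4A, CUL4B and DDB1 had log2 folds of -0.67 ± 0.10, -1.18 ± 0.21 and -0.79 ± 0.18. CUL4B had 50.7, 44.5 and 47.0 CPM in ATG5 and 121, 122 and 79.3 CPM in WT. DDB1 lost its call without ATG5 replicate 1 or 3 or WT replicate 1 or 3 (adjusted p = 0.062 to 0.0757), and CUL4A without WT replicate 1 (0.0502). With library sizes only none of the 4 was called, and the folds of CUL4A and DDB1 turned to 0.28 and 0.17.

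A list of 50 cell cycle regulators is called S phase regulators here, though not all act at entry into S phase. Of these, 47 were tested, and 23 rose and 2 fell, beside 17.3% higher and 13.2% lower over all tested genes. Their median log2 fold was 0.91. CDK1 had 31.5, 22.8 and 29.1 CPM in ATG5 and 0.480, 0.449 and 0.119 CPM in WT (6.29 ± 0.56), and CDK2, the kinase partner of cyclin E, had 9.35, 9.41 and 11.7 CPM in ATG5 and 1.04, 1.26 and 1.11 CPM in WT (3.15 ± 0.13). CHEK1, the checkpoint kinase of stalled forks, rose by 6.42 ± 0.37, and it had 3, 1 and 1 counts in WT. The transcription factors MYBL2 and E2F8, of which E2F8 is known as a repressor of E2F targets, rose by 3.65 ± 0.27 and 3.60 ± 0.41. The CCND2 row ENSDARG00000051748, a cyclin D gene, had 22.0, 12.7 and 25.0 CPM in ATG5 and 2.20, 3.17 and 2.82 CPM in WT (2.86 ± 0.33).

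The 2 regulators that fell, also a smaller share than the 13.2% over all tested genes, were LIN54, a DNA-binding subunit of the complex that represses cell cycle genes at rest, and 1 row of the kinase inhibitor CDKN1B. LIN54 stood at 9.29, 11.6 and 10.03 CPM in ATG5 and 21.0, 18.1 and 17.1 CPM in WT (-0.86 ± 0.13, edgeR adjusted p = 0.0112), and the CDKN1B row ENSDARG00000054271 at 20.1, 21.9 and 22.0 CPM in ATG5 and 37.5, 29.6 and 30.9 CPM in WT (-0.62 ± 0.11). Neither group pair overlapped, but with library sizes only their folds turned to 0.09 and 0.34 and were not called. The CDKN1B row also lost its call without ATG5 replicate 1, 2 or 3 or WT replicate 1 (adjusted p = 0.0511 to 0.0728). Leaving out ATG5 replicate 1, 2 or 3 or WT replicate 1 brought the regulators that rose to 14 or 15.

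Among the ATG5 libraries, replicate 3 was the highest for 29 of the 43 genes and the lowest for 0, and replicate 2 was the lowest for 31. The proliferation marker mki67 lay in the same order, at 92.6, 71.0 and 112 CPM in ATG5 and 2.84, 1.35 and 3.65 CPM in WT. Among the WT libraries no replicate stood out, with 14, 12 and 17 genes highest in replicates 1 to 3. The median coefficient of variation was 15.11% in ATG5 and 35.7% in WT, where counts were far lower.

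Markers of macrophages, lymphocytes and biliary cells were also mostly called higher in ATG5. Over all tested genes 17.3% were called higher and 13.2% lower. Among 13 macrophage markers 12 rose and 0 fell, with a summed level of 1522 to 1832 CPM in ATG5 and 188 to 277 CPM in WT. Their median log2 fold was 3.49. The largest was that of marco (4.81 ± 0.33), with 319, 222 and 173 CPM in ATG5 and 6.28, 9.99 and 9.13 CPM in WT. The MPEG1 row ENSDARG00000055290, 1 of 3 rows with that symbol, rose by 3.34 ± 0.35. Among 12 tested lymphocyte markers 9 rose and 0 fell (54.5 to 88.2 CPM in ATG5, 15.0 to 17.8 CPM in WT), with a median log2 fold of 2.34. The largest was that of cd4-1 (6.305 ± 0.522), with 25.1, 15.4 and 28.1 CPM in ATG5 and 0.120, 0.299 and 0.436 CPM in WT. For cd8a the levels were 4.40, 0.283 and 4.13 CPM in ATG5 and 0, 0.0299 and 0.278 CPM in WT (edgeR adjusted p = 0.045). The call of cd8a was lost without ATG5 replicate 1 or 3 or WT replicate 1 or 2 (edgeR adjusted p = 0.108 to 0.123). It was also lost with limma-voom (adjusted p = 0.224). Among 9 tested biliary markers 6 rose and 0 fell (2536 to 3673 CPM in ATG5, 799 to 1108 CPM in WT), with a median log2 fold of 1.32. ANXA4 had 1118, 888 and 1976 CPM in ATG5 and 335, 200.3 and 335 CPM in WT (2.19 ± 0.42), and krt18a.1 rose by 1.48 ± 0.26. The hepatocyte markers summed to 68070 to 101000.0 CPM in ATG5 and 229000.0 to 282800.0 CPM in WT. The part of these cell types in the values of the replication genes was not tested.

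The counts of the remaining lists stand beside 17.3% higher and 13.2% lower over all tested genes. Among 7 tested stellate markers 2 were called higher, and among 5 neutrophil markers 1 was, with 0 lower in either list. The stellate marker HAND2 (edgeR adjusted p = 0.0451) lost its call whichever library was left out (adjusted p = 0.0508 to 0.125). Its call was also lost with limma-voom (adjusted p = 0.0605). Endothelium had 1 marker higher and 1 lower out of 10. Out of 9 erythroid and 7 thrombocyte markers, 1 each was lower and 0 were higher. None of the 4 intestine and 7 pancreas markers tested was called in the main edgeR fit, with median log2 folds of 0.44 and -1.55. The intestine gene FABP2 had 4.40, 0.324 and 10.65 CPM in ATG5 and 0.520, 1.44 and 0.556 CPM in WT. DESeq2 called it higher (adjusted p = 0.0307), as did edgeR without ATG5 replicate 2 (0.025) and with library sizes only (0.0383). With library sizes only VIL1 was also called higher (edgeR adjusted p = 0.00983). The pancreas gene prss1 had 216, 171 and 122 CPM in ATG5 and 28.1, 495 and 938.5 CPM in WT. Without WT replicate 1 edgeR called prss1 lower (adjusted p = 0.0253). Germ cells also replicate DNA. Of the 10 markers of that list only 2, zp3b and PIWIL1, were tested, and the levels given here differed in direction. The egg coat gene zp3b had 0.820, 26.6 and 0.369 CPM in ATG5 and 0.600, 0.329 and 0.397 CPM in WT, high in ATG5 replicate 2 alone, and it did not pass (4.39 ± 1.86, edgeR adjusted p = 0.0985). PIWIL1 had 0.391, 1.29 and 0.436 CPM in ATG5 and 1.88, 0.868 and 0 CPM in WT and did not pass either. Among those not tested, DDX4 had 0.0559, 0.0607 and 0.101 CPM in ATG5 and 1.04, 1.14 and 0 CPM in WT. DAZL had 0, 4 and 4 counts in ATG5 and 14, 6 and 2 counts in WT, while buc had 0.242, 0.364 and 0.134 CPM in ATG5 and 0.0800, 0.0299 and 0 CPM in WT. GDF9 was at 0 counts in every library and NANOS3 at 0 in every WT library. The germ cell list summed to 1.73 to 28.8 CPM in ATG5 and 0.556 to 4.96 CPM in WT, and zp3b made up most of the highest sum.

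The changes are relative to TMM scaling. With library sizes only, the median log2 fold was 0.97 over all tested genes and 3.75 over the 43 genes, and 41 of the 43 were called higher and 0 lower. In RefSeq (GRCz12tu), 19 of the 43 genes overlap another gene in span. No source used here gives the strand setting of the counting, and reads of overlapping genes may have gone to either gene.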

How the data were processed

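The authors deposited estimated counts for each Ensembl gene in 6 libraries (39.5% of values were not whole). Per the labels' protocols, RNA came from TRIzol extraction and libraries from a TruSeq kit for stranded total RNA. Tools named in the submitters' processing notes, with no role, are kallisto 0.45.0, sleuth 0.30.0 and FastQC 0.11.5, and the build named is GRCz11. Columns were matched by the sample descriptions and groups by the titles.

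Symbols came from a table of Ensembl IDs (77.1% of 30628 genes matched), with a paralogue suffix dropped where it was missing and RefSeq synonyms used as a last step for the other lists. MCM6 had a second row, not used. The genes and lists were chosen with earlier results of these data known.

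Estimated counts were rounded, filtered with filterByExpr (20366 genes left) and scaled with TMM in edgeR 4.0.16 (R 4.3.3). The groups were compared with glmQLFit and glmQLFTest, a design of group only, Benjamini-Hochberg adjustment over all tested genes and a threshold of 0.05. Standard errors come from log2 CPM with a prior count of 2. Named genes were all 43, the called genes with the smallest p of the 2 wider lists (up to 6 in each direction), other subunits of the same complexes, and the first 2 markers of each cell type list, of which not all are printed. CCND2, CDKN1B and SSRP1 have 2 rows each, and only the row picked in this way is printed. Among the macrophage markers MPEG1 has 3 rows and MFAP4 has 8, and only the row with the highest mean count over all 6 libraries was used. Some further germ cell markers are printed as well. MKI67 and the overlapping genes were looked at after their values were seen.

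A chi-square check of each pair of libraries found none equal within counting noise. The steps were tested on simulated counts. Alternatives used limma 3.58.1 and DESeq2 1.42.0. Figures were drawn with matplotlib 3.10.9. Promoter and protein sequences are not used here.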

Additional observations from a re-analysis of the deposited data

How the results depend on the processing

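The 38 genes called higher were all called higher too with RLE or upper-quartile factors, library sizes only, without the 50 most abundant genes, with the looser and the stricter filter, DESeq2 and limma-voom, and 36 or 37 of them without any 1 library. At a threshold of 0.01, 31 of the 43 were called higher. The count of the 43 called lower was 0 with library sizes only or a threshold of 0.01, 1 with every gene with a count or limma-voom, and 0 to 2 without 1 library. Their median log2 fold was 3.75 with library sizes only, 2.94 with limma-voom, and 2.77 to 3.19 without 1 library. Of the other replication genes, 16 rose at a threshold of 0.01 (20 to 26 without 1 library), and those that fell numbered 0 with library sizes only, 1 at 0.01, 2 with a log2 fold of at least 1 and 2 to 4 without 1 library. Of the S phase regulators, 39 rose with library sizes only, 12 at 0.01 and 14 to 19 without 1 library, while those that fell numbered 0 with library sizes only, at 0.01 or with a log2 fold of at least 1, and 1 or 2 without 1 library. Over all genes, 3529 rose and 2698 fell; the counts were 10853 and 578 with library sizes only, 1518 and 953 at 0.01, and 2218 to 2791 and 1583 to 2071 without 1 library, and 1705 fell with a log2 fold of at least 1. The counts over all genes moved by over 1.5 times without ATG5 replicate 1 (2312 and 1614) or WT replicate 1 (2218 and 1583). The cause of these changes was not tested.

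The replicate numbers are shared between the groups, but same-numbered libraries did not deviate together (correlations of -0.04, -0.10 and 0.02), and the numbers were not taken as pairs. With the replicate block 36 of the 43 rose and 1 fell, 2 other replication genes and 1 S phase regulator fell, and 2253 genes rose and 1636 fell over all genes.

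With library sizes only, log2 folds that turned positive were those of pold3 (0.70), CUL4A (0.28), DDB1 (0.17), LIN54 (0.094), CDKN1B (0.34), fabp10a (0.035), lyz (0.85), hbaa1 (0.28), alas2 (0.46), itga2b (0.39), mpl (0.032), kdrl (0.15) and cdh5 (0.68). The fold of lyz was also positive with limma-voom (0.09) and the replicate block (0.18). Without 1 library the folds ran from -0.38 to 0.84 for lyz, -1.135 to 0.026 for hbaa1, -0.88 to 0.31 for alas2 and -1.633 to 0.059 for itga2b. Depth limits the WT values: 5 of the 43 genes had under 10 counts in every WT library, while the lowest count in an ATG5 library was 103.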

Other observations

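Relatives of 3 of the replication genes were near 0 in both groups. A second row carrying the MCM6 symbol, ENSDARG00000033231, had 3 counts in ATG5 replicate 1 and 0 in the other 5 libraries. For mcm3l the counts were 15, 0 and 0 in ATG5, against 0, 0 and 0 in WT, and slbp2 had 0, 1 and 0 counts in ATG5 and 0, 2 and 0 in WT. These 3 rows were picked after their values were seen, and none was tested. The rise of MCM6, MCM3 and slbp in ATG5 livers lay in 1 row of each pair.

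Of the genes whose spans overlap replication genes in RefSeq, 8 were looked at after the values were known. Others were not looked at, among them the 9 genes that overlap mcm2, asic4b at mcm6, mylk3 at orc6 and zgc:152670 at lig1. The STMN4 row ENSDARG00000043932 was called higher and SOS1 was called lower, while mpl, themis2, trim69, APRT, ninl, WSB2 and the other STMN4 row were not called by edgeR. Which of the 2 STMN4 rows lies beside MCM3 is not known here. Beside PCNA, trim69 stood at 1.56, 1.74 and 1.48 CPM in ATG5 and 1.40, 0.538 and 0.714 CPM in WT, and beside RPA2, themis2 stood at 5.21, 3.60 and 4.61 CPM in ATG5 and 2.24, 8.59 and 1.67 CPM in WT. Beside CDT1, APRT, a purine salvage enzyme gene, had 15.9, 15.6 and 21.6 CPM in ATG5 and 9.57, 12.7 and 12.6 CPM in WT (edgeR adjusted p = 0.0649). Beside GINS1, ninl had 51, 235 and 136 counts in ATG5 and 26, 30 and 14 counts in WT (edgeR adjusted p = 0.0893). Beside RFC5, WSB2 had 1.73, 3.64 and 2.73 CPM in ATG5 and 2.92, 2.30 and 2.98 CPM in WT. Beside RFC4, SOS1 stood at 17.7, 19.6 and 15.6 CPM in ATG5 and 30.0, 26.2 and 24.9 CPM in WT (log2 fold -0.62 ± 0.12, edgeR adjusted p = 0.0261).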
